A study of Homo sapiens with 18 samples.

Results

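The genes of the AP-1 transcription factors were examined for how open their chromatin was in Ccd18-Co, an established line of human colon fibroblasts. The 10 genes were FOS, FOSB, FOSL1 and FOSL2 of the Fos family, JUN, JUNB and JUND of the Jun family, and the related genes ATF3, BATF and BATF3. A peak, meaning a stretch of open chromatin called by the authors, was taken as a member when it overlapped the body of 1 of these genes or the 20 kb on either side (GENCODE release 44, build hg38). This gave 154 of the 334857 peaks of the table, and 10 of the 19564 protein-coding loci that hold a peak under the same rule.

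Accessibility was measured by bulk ATAC-seq, in which a transposase inserts sequencing adaptors into open DNA, in 18 libraries that form 3 groups of 6. Cells labelled stimulated received 3 pulses of TNF, OSM and IL-17A (10 ng/ml each) with IL-1β (0.1 ng/ml), each pulse lasting 72 h with 96 h of recovery, and rested for 1 week. They were then given the solvent DMSO (group stimulated_DMSO) or 250 nM belinostat, an inhibitor of histone deacetylases (group stimulated_Belinostat), for 5 days, and were collected 2 weeks later. Doses follow the labels, although the study's own account has other values in places. The third group is labelled unstimulated, and the labels do not say whether these cells were also given DMSO. All libraries come from 1 cell line, and the labels do not say that replicates were separate cultures, so that the p-values measure the spread between these libraries. DMSO against unstimulated is called the cytokine contrast, belinostat against DMSO the belinostat contrast, and belinostat against unstimulated the residual contrast. Each pair of these contrasts shares the libraries of 1 group, the cytokine and belinostat contrasts those of DMSO.

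AP-1 is a dimer of basic leucine zipper proteins. Jun proteins pair with each other or with Fos proteins, whereas Fos proteins need a Jun partner, and the dimer binds the word TGACTCA, read on either strand. ATF3, BATF and BATF3 also pair with Jun proteins, and dimers of the ATF kind prefer the cAMP response element (CRE), TGACGTCA. Stress and growth factor signals reach FOS and JUN through MAP kinases, and in fibroblasts AP-1 is known for driving metalloproteinases and other inflammatory genes. FOS, FOSB and JUNB are immediate-early genes, and serum response factor is known to bind a CArG box just upstream of the FOS start.

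The sequences below are reference sequence of hg38, read 5′ to 3′ on the strand of the named gene, and the capitals mark matches to the searched words. Peaks are numbered within a gene along the chromosome. The first set shows the stretches just upstream of the starts of FOS and JUND, since these hold the classical words of the family. FOS peak 6 (chr14:75278374-75278627, plus strand) has a CArG box in capitals. The JUND stretch (chr19:18281623-18281872, minus strand) is the part of JUND peak 8 that ends at the last base before the annotated start, with the CRE word in capitals.
FOS peak 6: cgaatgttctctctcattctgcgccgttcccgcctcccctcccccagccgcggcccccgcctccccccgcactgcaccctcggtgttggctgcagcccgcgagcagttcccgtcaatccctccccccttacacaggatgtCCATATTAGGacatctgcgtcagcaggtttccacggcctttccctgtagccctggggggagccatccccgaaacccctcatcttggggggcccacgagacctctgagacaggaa
JUND peak 8, upstream part: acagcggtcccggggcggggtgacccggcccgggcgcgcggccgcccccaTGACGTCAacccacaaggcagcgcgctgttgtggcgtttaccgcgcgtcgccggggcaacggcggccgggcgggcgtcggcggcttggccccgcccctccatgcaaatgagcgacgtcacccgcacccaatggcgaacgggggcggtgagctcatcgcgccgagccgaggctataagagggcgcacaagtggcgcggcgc

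The second set shows the middle of 4 of the peaks that differed between belinostat and DMSO libraries, all 4 with a searched word. The 300 bases centred on JUNB peak 5 (chr19:12779161-12779460, plus strand) and all of ATF3 peak 11 (chr1:212612507-212612769, plus strand) hold the AP-1 word, in capitals. Both were closed after belinostat. The 300 bases centred on FOS peak 2 (chr14:75267243-75267542, plus strand) and ATF3 peak 14 (chr1:212635246-212635545, plus strand) hold GGAATG on either strand, a word bound by TEAD factors, and the latter also has a κB word, bound by NF-kB. These 2 peaks were opened. The stretch in FOS peak 2 touches an exon of a long non-coding RNA, and the other 3 touch no annotated exon. Among the peaks not shown, ATF3 peak 15 was closed and has no searched word in its middle. ATF3 peak 7 was opened and holds both the AP-1 and the TEAD word.
JUNB peak 5: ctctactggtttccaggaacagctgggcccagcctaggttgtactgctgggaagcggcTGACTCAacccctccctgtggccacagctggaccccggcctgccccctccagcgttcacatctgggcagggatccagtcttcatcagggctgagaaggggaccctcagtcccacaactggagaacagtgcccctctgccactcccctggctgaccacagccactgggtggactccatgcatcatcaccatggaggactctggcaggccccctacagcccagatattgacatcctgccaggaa
ATF3 peak 11: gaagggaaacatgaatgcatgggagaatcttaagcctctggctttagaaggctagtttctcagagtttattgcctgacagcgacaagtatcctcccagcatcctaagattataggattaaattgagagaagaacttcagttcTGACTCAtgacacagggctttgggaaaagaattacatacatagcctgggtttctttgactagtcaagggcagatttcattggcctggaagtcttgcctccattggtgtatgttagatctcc
FOS peak 2: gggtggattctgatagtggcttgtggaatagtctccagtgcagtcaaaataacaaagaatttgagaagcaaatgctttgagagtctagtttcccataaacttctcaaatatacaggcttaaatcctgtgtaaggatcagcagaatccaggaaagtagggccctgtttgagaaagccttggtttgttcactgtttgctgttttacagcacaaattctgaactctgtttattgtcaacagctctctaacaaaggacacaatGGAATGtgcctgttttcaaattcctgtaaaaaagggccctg
ATF3 peak 14: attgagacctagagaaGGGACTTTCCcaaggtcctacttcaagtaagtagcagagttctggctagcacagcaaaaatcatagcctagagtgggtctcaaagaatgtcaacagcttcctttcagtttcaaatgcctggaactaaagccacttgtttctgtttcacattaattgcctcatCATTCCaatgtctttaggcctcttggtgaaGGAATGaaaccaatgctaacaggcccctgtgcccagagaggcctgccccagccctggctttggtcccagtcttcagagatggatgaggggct

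The libraries held 7077321 to 11352032 counts in peaks in the unstimulated group, 6488975 to 8066642 in the DMSO group and 4661678 to 6370845 in the belinostat group. The label fibroblast was checked at gene starts: all 10 fibroblast markers had a start peak, with COL1A1 highest at 68.0 CPM per kb of peak, where CPM is the count scaled to a common library size, in unstimulated libraries. The median of the fibroblast list was 26.5 CPM per kb. Of the epithelial markers 5 of 6 had a start peak, at a median of 2.08 CPM per kb over the list, and of the endothelial markers 3 of 4, at a median of 1.53. Of the immune markers 2 of 5 had one, and CD68, which marks macrophages, stood at 30.7 CPM per kb. The epithelial marker KRT20, the endothelial marker CDH5 and the immune markers PTPRC and SPI1 had no start peak. Strong peaks as a whole lay lower and weak peaks higher after treatment. Across the whole table, the median cytokine log2 fold change was 0.40 where the average log2 CPM was under 1, and -0.37 where it was over 5. Main values use TMM scaling, and the calls and counts are given with a second value from loess offsets, which remove from each library any trend of the counts with peak strength. Whether the trend comes from the cells or from background reads was not tested. In bulk chromatin, fewer cells with an open site and a less open site in every cell cannot be told apart.

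In unstimulated cells, the start peak of FOSL2 had the highest level of the family per kb of peak, and the start of BATF had no peak. The start peak is the strongest one within 500 bp of the start of the canonical transcript. Its level was 91.5 CPM per kb ± 10.2 (SD, n = 6) at FOSL2, with libraries from 79.3 to 108, and 81.1 ± 7.77 at JUN, with libraries from 70.3 to 94.4. The FOSL2 and JUN libraries overlapped, and both genes lay above all the others without overlap. JUNB followed with 57.2 ± 6.57, FOS with 54.7 ± 7.39 and JUND with 54.5 ± 5.62 CPM per kb, 3 levels whose libraries overlapped. ATF3, a stress-induced member, stood at 40.4 ± 3.09, and its libraries overlapped those of FOSB at 34.0 ± 2.65 CPM per kb. FOSL1, whose protein is also called FRA1, was lower at 22.2 ± 3.99, and BATF3 was lowest at 10.7 ± 1.30, each without overlap with its neighbours in this order. This order depends on the width of the called peaks, which ran from 214 bp at FOSB to 1624 bp at FOSL1. Not divided by width, every unstimulated library of the FOSL1 start peak lay above every one of those of FOS and FOSB. Some starts also hold more than 1 peak, such as FOSB peaks 5 to 7, and only the strongest was used. BATF and BATF3 are best known from lymphoid and dendritic cells.

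**Figure D1:**
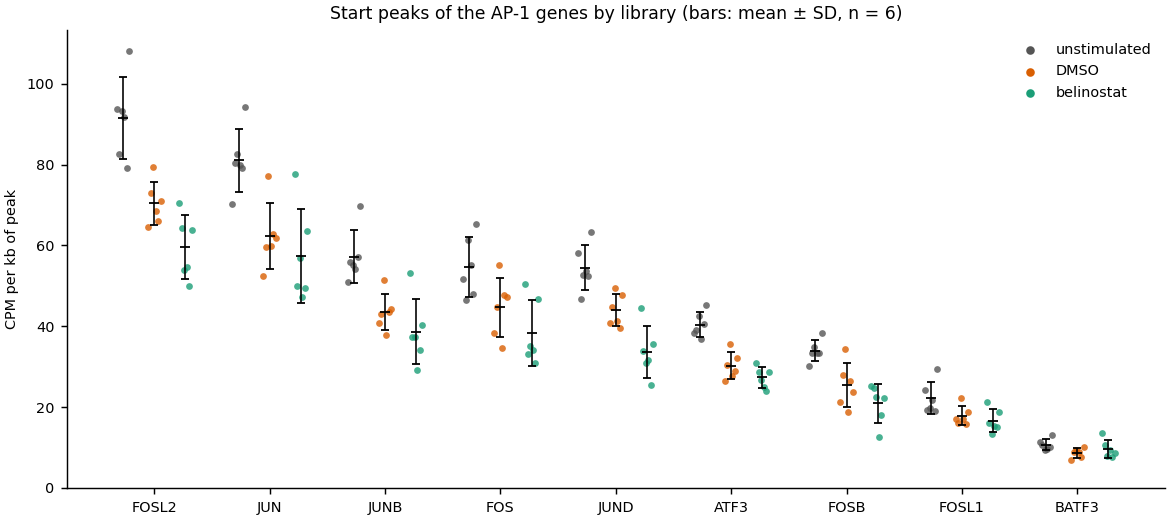
Level of the start peak (CPM per kb of peak, vertical axis) of the 9 AP-1 genes that have one, in the 6 libraries of each group (points), with mean ± SD. In unstimulated libraries the levels run from 91.5 at FOSL2 to 10.7 at BATF3, and the same genes stand at 70.4 and 8.68 in DMSO libraries.

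The loci differed in how their peaks were spread. FOSL2 (chr2:28392448-28417317) held 31 peaks, 10 of them touching its body, and JUN (chr1:58776845-58784048), a gene of a single exon, held 9. The window of ATF3 (chr1:212565334-212620777) was the widest at 95.4 kb and held 16 peaks, as did FOS (chr14:75278826-75282230) in 43.4 kb and JUNB (chr19:12791486-12793315) in 41.8 kb. BATF (chr14:75522455-75546993) had 17 peaks, FOSL1 (chr11:65892049-65900573) 14, FOSB (chr19:45467995-45475179) 13, JUND (chr19:18279694-18281622) 11 and BATF3 (chr1:212686417-212699840) 11. Of the 154 peaks, 18 lay within 500 bp of the start of another protein-coding gene and 41 touched the body of another such gene. HOOK2 at JUNB, IQCN at JUND, ERCC1 at FOSB and DRAP1 at FOSL1 were among these genes. A peak shared in this way was counted in the locus of each gene. Every peak of the JUNB locus touched HOOK2, and every peak of the FOSB locus touched ERCC1 or RTN2. The sums of these 2 loci thus hold no peak of the member alone.

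In cells collected 2 weeks after belinostat, single peaks around JUNB, ATF3, JUND and FOS differed from DMSO libraries. Of the start peaks of the family, that of JUND passed the test and the others did not. JUND peak 5 and JUNB peak 4 lay at starts of neighbouring genes, IQCN and HOOK2. Belinostat opened 3 of the 154 peaks and closed 6, against 0.607% and 1.75% of all peaks. With loess offsets the counts were 2 opened and 5 closed, against 0.945% and 1.51% of all peaks. The median log2 fold change of the 154 peaks was -0.12, and that of all peaks 0.01. By strength, 3 of 46 members with an average log2 CPM of 3 to 5 were closed, against 10.3% of all such peaks, 2 of 47 with 1 to 3, against 3.99%, and 1 of 9 over 5, against 6.82%. The 9 peaks lay in 4 of the loci, namely FOS, JUNB, JUND and ATF3. The count closed was 14 without belinostat replicate 1, and the count opened was 1 without DMSO replicate 2. For those fits the share of all peaks is not given, so both counts describe only the dependence on single libraries.

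**Figure D2:**
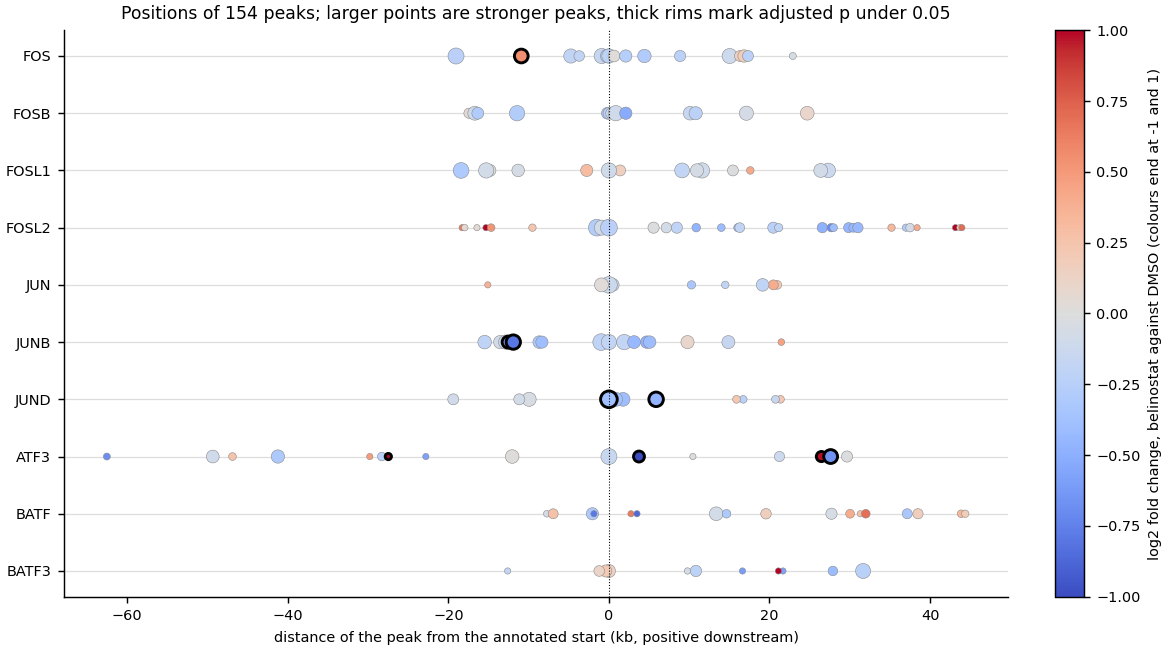
Position of the 154 peaks (kb from the annotated start of the canonical transcript, horizontal axis, positive downstream) at each of the 10 genes, coloured by the log2 fold change of belinostat against DMSO. Larger points are stronger peaks, and thick rims mark the 9 peaks with an adjusted p under 0.05, of which 1 is a start peak, that of JUND.

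In the Jun family, the largest difference was at JUNB peak 5 (chr19:12779047-12779574), 11912 bp upstream of the JUNB start and inside HOOK2. Its level ranged from 20.5 to 30.0 CPM (median 23.8) in unstimulated, from 15.9 to 23.4 (median 20.1) in DMSO and from 8.30 to 13.0 (median 12.0) in belinostat libraries. Every belinostat library lay below every DMSO library and every unstimulated library. Belinostat against DMSO gave a log2 fold change of -0.80 ± 0.13 (± is the SE of a fold change, adjusted p 1.35e-06), and loess offsets gave -0.63 (adjusted p 5.83e-07). It passed the test under all 20 alternatives, with adjusted p-values from 2.51e-07 to 0.00891. In the cytokine contrast the same peak gave -0.27 ± 0.11 (adjusted p 0.0748). The narrow JUNB peak 4, 12549 bp upstream and next to the start of HOOK2, had medians of 7.91, 6.26 and 4.27 CPM in the 3 groups. Its belinostat call (-0.55 ± 0.17, adjusted p 0.0473) ended in 14 of 20 alternatives, including loess offsets (-0.45, adjusted p 0.0983). It ended without DMSO replicates 1 to 4 (adjusted p 0.0523, 0.164, 0.148 and 0.0661) and without belinostat replicates 2, 4, 5 and 6 (0.0948, 0.0938, 0.0791 and 0.128). The start peak of JUNB itself gave -0.18 ± 0.11 (adjusted p 0.435).

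At JUND, a Jun gene broadly expressed in resting cells, the start peak was lower after belinostat. JUND peak 8 (chr19:18280992-18282533) ranged from 72.2 to 97.6 CPM (median 82.0) in unstimulated, from 61.2 to 76.2 (median 66.5) in DMSO and from 39.1 to 68.8 (median 50.5) in belinostat libraries. The highest belinostat library overlapped the DMSO group, and no belinostat library reached the unstimulated range. The log2 fold change against DMSO was -0.39 ± 0.10 (adjusted p 0.0188), while loess offsets gave -0.17 (adjusted p 0.0379). The call ended without DMSO replicate 2, 3 or 6 (adjusted p 0.0534, 0.0725 and 0.0816) and without belinostat replicate 3 or 5 (0.0668 and 0.108). It also ended with TMM from the weaker 50% of peaks (adjusted p 0.286). JUND peak 5 (chr19:18274395-18275742), 5880 bp downstream of the start and over the start of IQCN, had medians of 21.8, 22.8 and 16.0 CPM. It gave -0.47 ± 0.12 (adjusted p 0.0125), while loess offsets gave -0.30 (adjusted p 0.0375). That call ended without DMSO replicate 6 (adjusted p 0.0697) or belinostat replicate 2 (0.0758), and with TMM from the weaker 50% of peaks (0.196). At JUN the peak with the smallest belinostat p, JUN peak 2, gave 0.40 ± 0.23 (adjusted p 0.381).

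In the Fos family, the belinostat call was at FOS peak 2 (chr14:75266871-75267913), 10915 bp upstream of the FOS start. It ranged from 13.7 to 19.3 CPM (median 15.4) in unstimulated, from 6.45 to 12.7 (median 11.0) in DMSO and from 9.44 to 18.5 (median 16.2) in belinostat libraries. Every DMSO library lay below every unstimulated library, and the belinostat group overlapped both others. The peak was closed after cytokines (-0.64 ± 0.13, adjusted p 0.000300; loess -0.29, adjusted p 0.0845) and opened by belinostat (0.55 ± 0.14, adjusted p 0.00745; loess 0.68, adjusted p 1.73e-06). Belinostat against unstimulated gave -0.09 ± 0.13 (adjusted p 0.635), while loess offsets gave 0.40 (adjusted p 0.00389). The belinostat call ended without DMSO replicate 1 (0.44, adjusted p 0.0599) or 2 (0.48, adjusted p 0.0548). It also ended with TMM from the weaker 50% of peaks (0.45, adjusted p 0.341). The FOS start peak, with the CArG box just upstream, gave -0.22 ± 0.13 (adjusted p 0.378). The smallest belinostat p-values at the other Fos genes belonged to FOSB peak 9 (-0.53 ± 0.17, adjusted p 0.062), FOSL1 peak 14 (-0.30 ± 0.11, adjusted p 0.134) and FOSL2 peak 7 (-0.28 ± 0.10, adjusted p 0.129).

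ATF3 had 4 of the 9 peaks, 2 opened and 2 closed. ATF3 peak 11 (chr1:212612507-212612769), in an intron 3746 bp from the start of the canonical transcript, ranged from 3.53 to 6.24 CPM (median 5.29) in unstimulated, from 2.66 to 5.45 (median 4.49) in DMSO and from 1.48 to 2.81 (median 1.66) in belinostat libraries. The belinostat group lay below the unstimulated group without overlap and overlapped the DMSO group at its edge. The log2 fold change against DMSO was -1.15 ± 0.21 (adjusted p 7.71e-05), while loess offsets gave -1.07 (adjusted p 0.000161). ATF3 peaks 14 and 15 are neighbours beyond the end of the gene and differed in opposite directions. ATF3 peak 14 (chr1:212635229-212635561), 26468 bp from the start, had medians of 2.38, 1.75 and 4.09 CPM and gave 0.98 ± 0.21 (adjusted p 0.00136; loess 1.01, adjusted p 0.000618). ATF3 peak 15 (chr1:212636381-212637110), 27620 bp from the start, had medians of 18.0, 16.7 and 9.56 CPM and gave -0.67 ± 0.13 (adjusted p 0.000213; loess -0.52, adjusted p 0.000295). Peaks 11 and 15 passed the test under all 20 alternatives, and peak 14 under 19. The weak ATF3 peak 7, at 0.286, 0.140 and 0.740 CPM, gave 2.11 ± 0.57 (adjusted p 0.0204), while loess offsets gave 1.82 (adjusted p 0.0547). Its call also ended without DMSO replicate 2 (adjusted p 0.0775) or belinostat replicate 4 or 5 (0.083 and 0.0674). The ATF3 start peak gave -0.15 ± 0.11 (adjusted p 0.496).

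**Figure D3:**
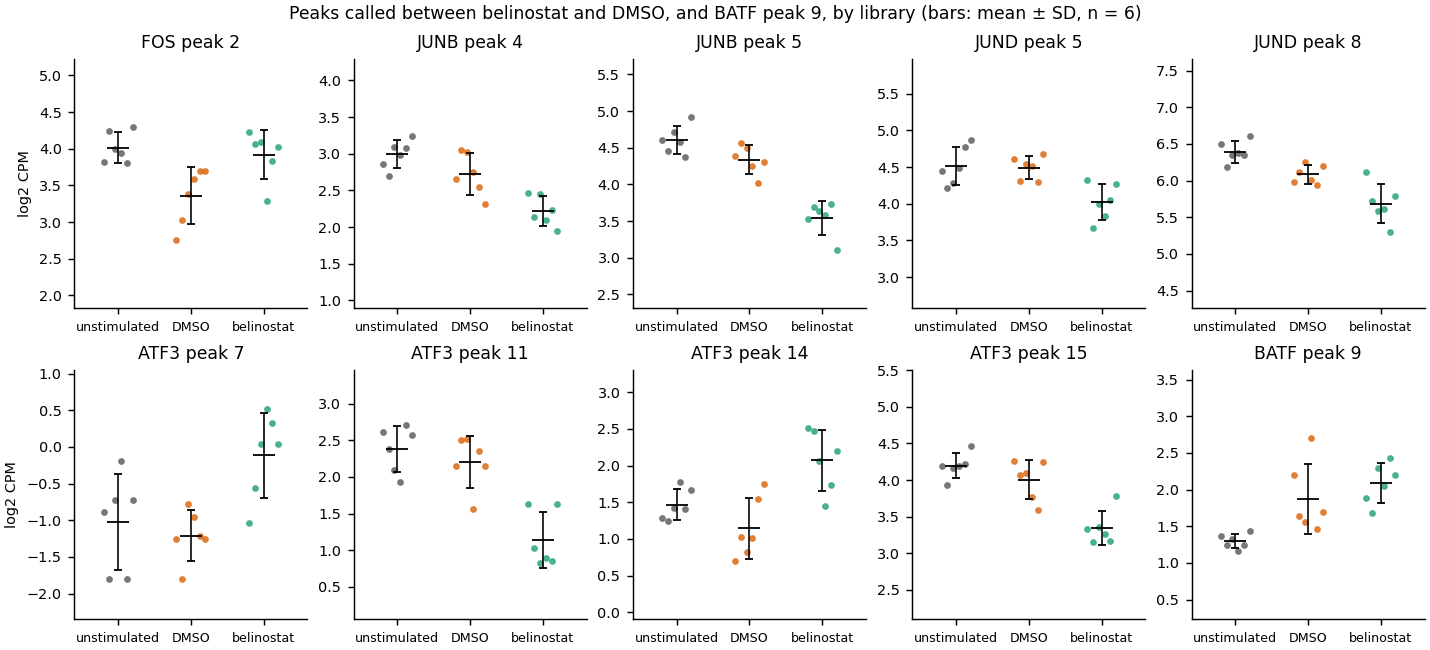
Log2 CPM (vertical axis) of the 9 peaks called between belinostat and DMSO and of BATF peak 9, in the 6 libraries of each group (points), with mean ± SD. Each panel spans the same height on the log2 scale. JUNB peak 5 is the panel in which no belinostat library reaches the DMSO group.

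BATF and BATF3 had no belinostat call. The smallest p-values were at BATF peak 13 (0.69 ± 0.26, adjusted p 0.159) and BATF3 peak 4 (1.11 ± 0.43, adjusted p 0.163), both weak peaks.

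Summed over all peaks of a locus, JUND was the member called after belinostat. The JUND locus ranged from 158 to 211 CPM (median 180) in unstimulated, from 138 to 169 (median 147) in DMSO and from 102 to 151 (median 116) in belinostat libraries. It gave -0.33 ± 0.08 (adjusted p 0.0353), while loess offsets gave -0.19 (adjusted p 0.00762). Thus 1 of 10 loci was lower and 0 higher, against 2.35% and 0.153% of all loci. With loess offsets 2 were lower and 0 higher, against 3.33% and 2.85% of all loci, the second being JUNB (-0.11, adjusted p 0.0296; -0.25 ± 0.08 with TMM, adjusted p 0.0838). At an unadjusted p under 0.05, 4 loci were lower and 0 higher, against 21.0% and 2.31% of all loci. FOSL2 gave -0.22 ± 0.06 (adjusted p 0.0553), and the other 7 loci lay between -0.18 and -0.02. The JUND call ended without DMSO replicate 2, 3 or 6 (adjusted p 0.0742, 0.142 and 0.153) or belinostat replicate 2, 3, 4 or 5 (0.0818, 0.0946, 0.0815 and 0.110). It also ended with 2 groups only (adjusted p 0.0663) and with TMM from the weaker 50% of peaks (0.494). Without belinostat replicate 1, 6 of the 10 loci were lower, and without DMSO replicate 5, 2. The share of all loci called in those fits is not given, so these counts describe only the dependence on single libraries.

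After cytokines, 9 of the 10 loci were lower than in unstimulated cells and BATF was not. The 9 fell by 0.25 (FOSL2, JUND) to 0.39 (JUN) on the log2 scale. At FOS the locus ranged from 226 to 310 CPM (median 247) in unstimulated and from 191 to 236 (median 200) in DMSO libraries, with an overlap, and gave -0.29 ± 0.09 (adjusted p 0.00370). At JUN it ranged from 124 to 155 CPM (median 133) and from 87.0 to 126 (median 102), and gave -0.39 ± 0.09 (adjusted p 0.000788). These falls were near the background, since 67.8% of all loci were lower and 10.5% higher, with a median of -0.25 over all loci and -0.29 over the members. With loess offsets 0 of the 10 loci were lower and 1 was higher, against 11.7% and 16% of all loci, and the 9 lay between -0.11 and 0.05.

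BATF was the locus that did not pass the test after cytokines. Its locus ranged from 44.9 to 50.3 CPM (median 46.2) in unstimulated, from 44.8 to 49.8 (median 45.9) in DMSO and from 39.8 to 52.7 (median 46.1) in belinostat libraries. The 3 groups overlapped, and the cytokine contrast gave -0.02 ± 0.07 (adjusted p 0.798). The direction turns with the scaling: loess offsets gave 0.20 (adjusted p 0.0118), library totals 0.19 (adjusted p 0.00996) and DESeq2 0.21 (adjusted p 0.00528). With TMM from the weaker 50% of peaks alone, the BATF locus was called lower instead (-0.48, adjusted p 0.00545). Over the 18 libraries the log2 CPM of the BATF locus had a Pearson r of 0.29 to 0.43 with the other members, which had r of 0.78 to 0.98 with each other. The libraries share their group and their depth, so these values are a description. BATF was also the locus whose strongest peak was weakest, at an average log2 CPM of 3.81, against 4.78 to 6.22 at the others.

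**Figure D4:**
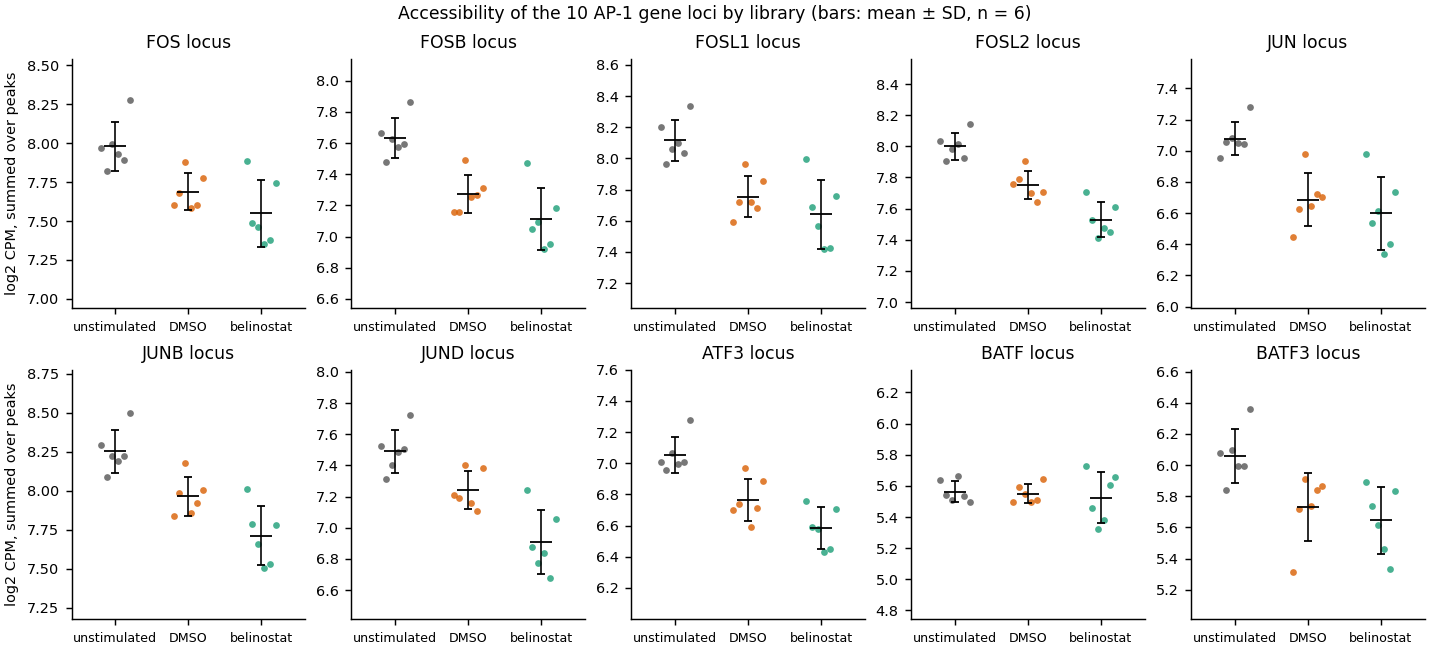
Log2 CPM summed over the peaks of each AP-1 gene locus (vertical axis, the same height in every panel) in the 6 libraries of each group (points), with mean ± SD. From unstimulated to DMSO the medians go from 247 to 200 CPM at FOS and from 299 to 248 at JUNB, and from 46.2 to 45.9 at BATF.

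Peak by peak, cytokines opened 4 of the 154 members and closed 37, against 9.51% and 9.73% of all peaks. The closed members were the strong ones. Of 9 members with an average log2 CPM over 5, 8 were closed, against 92.8% of all peaks of that strength, and of 46 with 3 to 5, 23 were closed, against 62.1%. With loess offsets 4 members were opened and 0 closed, against 2% and 1.9% of all peaks, and 4 had an unadjusted p under 0.05 and a lower level, against 9.81% of all peaks. The count of closed members was 17 without unstimulated replicate 6, 23 without unstimulated replicate 1 and 24 without DMSO replicate 4. The count opened was 2 without unstimulated replicate 6 or DMSO replicate 1. Shares of all peaks in those fits are not given, so these counts describe only the dependence on single libraries. FOSL1 had 9 closed peaks and FOSB 8, and BATF had 0.

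**Figure D5:**
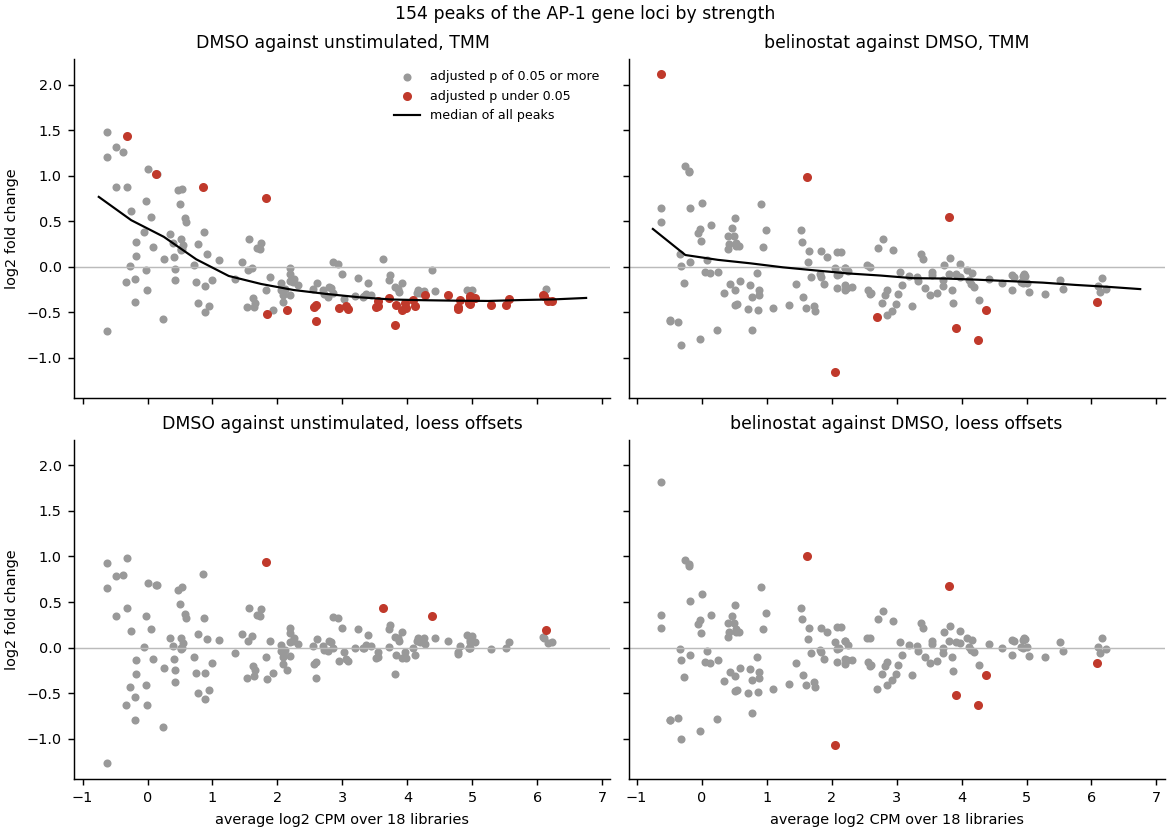
Log2 fold change (vertical axis) of the 154 peaks by average log2 CPM (horizontal axis), for the cytokine contrast (left) and the belinostat contrast (right), with TMM (top) and loess offsets (bottom). Red points have an adjusted p under 0.05, and the black line is the median of all peaks of that strength. On the left the 37 closed peaks follow the line at the top, and 0 are called lower at the bottom.

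The start peaks show the same pattern. In the cytokine contrast the start peak of FOSL2 gave -0.38 ± 0.10 (adjusted p 0.00495), that of JUN -0.38 ± 0.10 (adjusted p 0.00578) and that of JUNB -0.39 ± 0.11 (adjusted p 0.00662). The ATF3 start peak gave -0.42 ± 0.10 (adjusted p 0.00240), without overlap between DMSO and unstimulated libraries. With loess offsets these 4 gave 0.06, 0.05, 0.00 and -0.01, with adjusted p-values of 0.461, 0.572, 0.982 and 0.969. The start peaks of FOSB (-0.42 ± 0.15), FOSL1 (-0.32 ± 0.11) and JUND (-0.31 ± 0.10) passed the test with adjusted p-values of 0.037, 0.031 and 0.0222, and those of FOS (-0.29 ± 0.12) and BATF3 (-0.30 ± 0.13) did not (0.0639 and 0.0959). In all, 9 of the 14 peaks within 500 bp of a start were closed, 0 with loess offsets. The median average log2 CPM of the 14 was 4.03, and 62.1% of all peaks with an average of 3 to 5 were closed. Apart from FOS peak 2, 7 closed peaks more than 500 bp from the canonical start had the smallest p of their locus. FOSL2 peak 8 gave -0.46 ± 0.11 (adjusted p 0.00164) and FOSL1 peak 14 -0.42 ± 0.10 (0.00258). BATF3 peak 1 gave -0.44 ± 0.11 (0.00371) and JUN peak 8 -0.45 ± 0.12 (0.00396). FOSB peak 8 gave -0.41 ± 0.11 (0.00407), JUNB peak 3 -0.43 ± 0.12 (0.00523) and JUND peak 9 -0.36 ± 0.12 (0.0200). Of these 7, FOSB peak 8 holds 3 other annotated FOSB starts. FOSL1 peak 14 lies at the starts of C11orf68 and DRAP1, and JUNB peak 3 at that of HOOK2. With loess offsets each of these 7 calls ended (adjusted p from 0.485 to 0.956). The calls at the start peaks of FOSB, FOSL1 and JUND and at JUND peak 9 ended without unstimulated replicate 1 (adjusted p 0.0515, 0.0993, 0.0751 and 0.0508), unstimulated replicate 6 (0.0966, 0.189, 0.0883 and 0.0631) or DMSO replicate 4 (0.13, 0.0676, 0.0569 and 0.06). Some of them also ended without unstimulated replicate 3, 4 or 5 or DMSO replicate 1, 2, 5 or 6 (adjusted p from 0.0526 to 0.0841). The FOS start peak passed the test without unstimulated replicate 2 or DMSO replicate 3 (adjusted p 0.0416 and 0.0215).

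Of the 4 members opened after cytokines, 3 were at BATF and 1 at FOSL2. BATF peak 9 (chr14:75542038-75543234), in an intron 19569 bp from the start, ranged from 1.96 to 2.42 CPM (median 2.16) in unstimulated, from 2.48 to 6.24 (median 2.89) in DMSO and from 2.93 to 5.13 (median 4.08) in belinostat libraries. Every DMSO library and every belinostat library lay above every unstimulated library. It gave 0.75 ± 0.20 in the cytokine contrast (adjusted p 0.00577), while loess offsets gave 0.94 (adjusted p 0.00204). Belinostat against DMSO gave 0.17 ± 0.19 (adjusted p 0.686), and belinostat against unstimulated 0.92 ± 0.21 (adjusted p 0.000275; loess 1.16, adjusted p 2.27e-05). The cytokine call ended without DMSO replicate 4 (0.50, adjusted p 0.104) and with TMM from the weaker 50% of peaks (0.28, adjusted p 0.438). The weak BATF peaks 1 and 6 and FOSL2 peak 27 gave 1.02, 1.43 and 0.87 (adjusted p 0.0461, 0.0177 and 0.0217), and with loess offsets these calls ended (0.294, 0.191 and 0.088). FOSL2 peak 27 was also no longer called without unstimulated replicate 1 or 6 (adjusted p 0.0519 and 0.0916) or DMSO replicate 1 or 2 (0.0819 and 0.0608). The same held with TMM from the weaker 50% of peaks (adjusted p 0.267). Loess offsets called 3 further members higher, FOS peak 10 (0.43, adjusted p 0.0140), JUND peak 5 (0.35, adjusted p 0.00257) and FOSL2 peak 7 (0.19, adjusted p 0.00775). With TMM these 3 gave 0.08, -0.03 and -0.24.

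Belinostat against unstimulated cells, 66 members were closed and 13 opened, against 13.7% and 16.8% of all peaks. With loess offsets 7 were closed and 9 opened, against 4.92% and 3.82%. The 7 included JUNB and ATF3 peaks described above. JUNB peak 5 gave -1.07 ± 0.12 (adjusted p 8.37e-13; loess -0.54, adjusted p 8.55e-06), ATF3 peak 11 -1.32 ± 0.21 (adjusted p 1.11e-07; loess -1.05, adjusted p 8.22e-05) and ATF3 peak 15 -0.85 ± 0.13 (adjusted p 5.36e-08; loess -0.34, adjusted p 0.0180). ATF3 peak 14 was opened (0.64 ± 0.20, adjusted p 0.0107; loess 0.81, adjusted p 0.00309). At the level of loci, 9 of 10 were lower and 0 higher, against 71.6% and 11.8% of all loci, and BATF was again the exception (-0.04 ± 0.07, adjusted p 0.624). With loess offsets 3 were lower and 1 higher, against 21.3% and 22.8%. The 3 were JUND (-0.15, adjusted p 0.00614), JUNB (-0.10, adjusted p 0.00819) and FOSB (-0.09, adjusted p 0.0360), and the 1 was BATF (0.27, adjusted p 0.00104).

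Sequence words were counted in the 300 bases centred on each peak, on both strands. The AP-1 word was present in 17 of the 154 members (11.0%), against 12.8% of all 334845 windows. The members closed by belinostat held it in 3 of 6 cases, JUNB peak 5, JUND peak 5 and ATF3 peak 11, and the opened ones in 1 of 3, ATF3 peak 7. Over all peaks, 3.73% of those with the AP-1 word were closed and 1.46% of those without it. These are shares of peaks with or without the word, so they are not a background for the 3 of 6. The TEAD word was present in 26 members (16.9%, all peaks 21.3%), in 3 of the 3 opened by belinostat and in 0 of the 6 closed. Over all peaks 1.18% of those with the TEAD word were opened and 0.452% of those without it. Again these are not shares of opened peaks, so the 3 of 3 cannot be set against them. The CArG box was present in 6 members (3.9%, all peaks 1.68%), namely FOS peaks 6 and 12, FOSB peaks 5 and 13, JUNB peak 8 and BATF3 peak 6. The CRE word was present in 2 (1.3%, all peaks 0.3%), FOSB peak 5 and JUND peak 8, and the κB word in 17 (11.0%, all peaks 8.24%). No match was found in the middle of ATF3 peak 15 and BATF peak 9. A match is a description of the letters and not a binding site. In the RefSeq promoters (250 bases before to 50 after the start, GRCh38.p14), which matched 8 of the 10 genes, the AP-1 word was in that of FOSL2 (4.95% of all promoters) and the CRE word in that of JUND (1.85%).

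The genes around AP-1 in the pathway were counted in the same way. Of 14 relatives with a leucine zipper, such as ATF2, MAF and NFE2L2, 14 loci were lower in the cytokine contrast, where 67.8% of all loci were lower, and 0 passed the test after belinostat. Of 14 MAP kinase genes, 12 were lower after cytokines, and of 12 regulators of immediate-early genes, such as SRF and EGR1, all 12. Of 11 feedback genes, which encode dual-specificity phosphatases and proteins that promote mRNA decay, 7 were lower. With loess offsets these cytokine counts were 1, 3, 1 and 3 lower, and 0, 1, 0 and 1 higher, against 11.7% and 16% of all loci. The genes with the smallest p were BATF2 (-0.34 ± 0.07, adjusted p 0.000469), the kinase MAPK10 (-0.38 ± 0.07, adjusted p 0.000244), MYC (-0.36 ± 0.06, adjusted p 0.000287) and ZFP36L1 (-0.38 ± 0.07, adjusted p 0.000374). With loess offsets MAPK10 (-0.08, adjusted p 0.0353) and ZFP36L1 (-0.09, adjusted p 0.0204) were still called, and BATF2 (-0.07, adjusted p 0.164) and MYC (-0.10, adjusted p 0.0825) were not. After belinostat, where 2.35% of all loci were lower and 0.153% higher, the call in these 4 lists was DUSP5 (-0.27 ± 0.07, adjusted p 0.0486; loess -0.16, adjusted p 0.0178), a phosphatase that acts on ERK. With loess offsets MAFG, EGR1, DUSP16 and ZFP36L1 were also called lower and MAPK8 higher, against 3.33% and 2.85% of all loci. In the residual contrast 14, 12, 12 and 8 loci of the 4 lists were lower and 0 higher, against 71.6% and 11.8% of all loci. With loess offsets 3, 3, 4 and 6 were lower and 0, 4, 1 and 4 higher, against 21.3% and 22.8% of all loci. The smallest p-values were at BATF2 (-0.54 ± 0.07, adjusted p 1.08e-06), MAP3K8 (-0.59 ± 0.08, adjusted p 2.10e-06), EGR2 (-0.59 ± 0.08, adjusted p 1.88e-06) and ZFP36L1 (-0.64 ± 0.08, adjusted p 3.55e-07).

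Among 12 known AP-1 target genes, 4 loci were lower after belinostat and 0 higher, against 2.35% and 0.153% of all loci. The list was chosen with earlier results of these data known, so the count is a description. MMP10, the metalloproteinase stromelysin-2, gave -0.45 ± 0.08 (adjusted p 0.00398; loess -0.39, adjusted p 0.000861). The other 3, named because the count is small, were the collagenase genes MMP1 (-0.34 ± 0.09, adjusted p 0.0371) and MMP13 (-0.39 ± 0.10, adjusted p 0.0362), and PLAU (-0.29 ± 0.07, adjusted p 0.0339), which encodes urokinase. With loess offsets all 4 stayed called and PLAUR joined them, where 3.33% of all loci were lower. MMP1 and MMP10 are neighbours and share 6 of their 8 and 9 peaks, so they are not separate results. The median of the 12 was -0.22, against -0.08 over all loci. After cytokines 6 of the 12 were lower, against 67.8% of all loci. With loess offsets 2 were lower and 2 higher, against 11.7% and 16% of all loci. In the residual contrast 10 were lower, against 71.6% of all loci. With loess offsets 6 were lower and 0 higher, against 21.3% and 22.8% of all loci.

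The loci whose log2 CPM ran most like that of a member over the 18 libraries were found for each gene among loci that share no peak with it. For 9 members the nearest had a Pearson r of 0.973 to 0.993, for example RHNO1 for FOS, SAE1 for JUN, MPDU1 for JUNB and HSPA1A for FOSL1. For BATF the nearest was PSMC1, with an r of 0.749.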

How the data were processed

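Open chromatin was profiled in 18 bulk ATAC-seq libraries. The authors trimmed and aligned the reads to hg38 with the ENCODE pipeline, removed duplicates, called peaks with MACS2, merged them over the conditions and counted fragments of up to 1000 bp per peak with csaw. What the authors deposited are these raw counts, 1 per peak and library, not normalized. Their background bins were not used here, so TMM factors came from the peak counts. Unequal background between libraries may thus affect the values. Column names matched 1 library each, and no pair of libraries was identical. Same-numbered replicates did not deviate together.

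Counts per peak, and counts summed over the body and 20 kb on either side of each protein-coding gene, went into quasi-likelihood tests (edgeR 4.0.16, R 4.3.3, glmQLFit with the legacy option and glmQLFTest) with 3 group means fitted to the 18 libraries. Benjamini-Hochberg adjustment covered every peak or every locus tested, and calls have an adjusted p under 0.05. The filter of the study, an average log2 CPM over -3, removed 0 peaks. Log2 CPM used a prior count of 2. Alternatives were library totals, TMM over 10 kb bins, TMM from the weaker 50% of peaks alone, offsets by loess, an average log2 CPM over 0, a replicate block, DESeq2 1.42.0, 2 groups only, each library left out, and for loci 3 kb on either side or no peaks of other genes. Starts are counted from 1. Sequence words were searched in hg38.

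The text names all member loci, their start peaks, each peak called after belinostat, and the peak of each locus with the smallest belinostat p and the smallest cytokine p in each direction. It also names the 2 loci most like each member (examples are given) and the leading gene of each list, except for some items that are not reported here. BATF peaks 1 and 6, FOS peak 10 and the peaks named for a sequence word were named after their values were seen. The members and the gene lists were chosen with earlier results of these data known. The named markers were used for the check of the cell type: summed over the start peaks, the fibroblast list had 276 to 312 CPM in unstimulated, 192 to 250 in DMSO and 167 to 263 in belinostat libraries, and the epithelial (5 of 6 with a peak), endothelial (3 of 4) and immune (2 of 5) lists had at most 17.5, 7.79 and 22.7 CPM in a library.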

Additional observations from a re-analysis of the deposited data

Results flagged for a closer look

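In 8 of 123 groups of 6 values, over the 10 loci and 31 named peaks, 1 library stood apart by Dixon's test. Chance flags about 1 in 20 groups. All values are log2 CPM, and the nearest library of the same group follows in each case. Unstimulated replicate 6 was high at the ATF3 locus (7.28, nearest 7.07) and at the JUNB start peak (5.53, nearest 5.24), and low at FOSL2 peak 27 (-1.81, nearest 0.07). DMSO replicate 1 was low at the BATF3 locus (5.32, nearest 5.72). Belinostat replicate 1 was high at FOSL2 peak 8 (4.91, nearest 4.57), and belinostat replicate 5 was low at JUN peak 2 (0.33, nearest 1.59). Belinostat replicate 6 was low at JUNB peak 5 (3.10, nearest 3.53) and high at ATF3 peak 15 (3.78, nearest 3.36). Without belinostat replicate 6, both of these peaks were still called lower after belinostat.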

How the results depend on the processing

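Among the alternatives run, the belinostat calls at JUNB peak 5, ATF3 peak 11 and ATF3 peak 15 held in every one, and no belinostat value that was called, under TMM or the alternative, changed sign. The cytokine falls at loci and named peaks lost their call with loess offsets, as did many residual falls. The residual falls at JUNB peaks 4 and 5, ATF3 peaks 11 and 15 and the JUND locus held in every alternative. Those at the JUNB and FOSB loci held in every alternative in which these loci could be tested. The cause was not tested. The belinostat libraries had the fewest counts, which limits what weak peaks can show.

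For peaks, cytokines opened 10, 9 and 0 with library totals, TMM over 10 kb bins and TMM over the weaker 50% of peaks, and closed 10 with library totals, 87 with the weaker peaks, 0 with loess offsets and 23 with DESeq2. Belinostat opened 1 and closed 3 with the weaker peaks. In the residual contrast 23 and 2 were opened and 30 and 105 closed with library totals and the weaker peaks, and 7 closed with loess offsets. For loci, cytokine calls with library totals, loess offsets and DESeq2 were 1, 1 and 1 higher and 3, 0 and 3 lower. Belinostat loci lower were 3 with library totals, 0 with the weaker peaks, 2 with loess offsets, 3 with DESeq2, 0 with 2 groups only and 2 without peaks of other genes. In that last alternative JUNB and FOSB kept no peak and could not be tested. Residual loci higher were 1 with library totals, 1 with loess offsets and 1 with DESeq2, and 3 were lower with loess offsets. Apart from loess offsets, the shares of all peaks and loci in these alternatives are not given. The counts thus describe only how the calls depend on processing.

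With each library left out, the counts ranged from 2 to 6 opened and 17 to 47 closed after cytokines, from 1 to 3 opened and 4 to 14 closed after belinostat, and from 9 to 15 opened and 57 to 69 closed in the residual contrast. Belinostat loci lower ranged from 0 to 6. No shares of all peaks or loci are given for these fits, so the ranges are not results about the family.

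The replicate numbers did not pair the libraries (correlations of -0.183 to 0.151, 5 of 18 over 0.1). With a replicate block, 8 member peaks were closed and 3 opened after belinostat and 3 loci were lower, JUND, JUNB and FOSL2. Here too the shares of all peaks and loci are not given.

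With loess offsets the sign turned in the cytokine contrast at the FOS (0.00), FOSL2 (0.05), JUNB (0.01), JUND (0.04) and BATF (0.20) loci and at FOSL1 peak 9 (0.08), FOSL2 peaks 7 (0.19) and 9 (0.06), JUN peak 7 (0.05) and JUND peaks 5 (0.35) and 8 (0.12). In the residual contrast it turned at the FOS (0.01) and BATF (0.27) loci and at FOS peaks 2 (0.40) and 7 (0.01), FOSB peak 8 (0.08), FOSL1 peak 9 (0.17), FOSL2 peaks 7 (0.14), 8 (0.01) and 9 (0.04), JUN peaks 7 (0.15) and 8 (0.07), JUND peaks 5 (0.05) and 9 (0.10) and ATF3 peak 10 (0.06). The BATF locus turned with library totals (0.19 and 0.27) and DESeq2 (0.21 and 0.30) in the 2 contrasts. With TMM over the weaker 50% of peaks it was called lower in both (-0.48 and -0.61, adjusted p 0.00545 and 0.000536). With 3 kb on either side it was called lower in the residual contrast (-0.19, adjusted p 0.0347).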
